A study of Mus musculus with 16 samples.

Results

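The genes described here are 58 genes whose RNA was higher after both 2 and 4 hours of c-RAF activation in mouse stem cells and lower again after 2 hours of MEK inhibition. They were chosen from measured values. Each gene's counts were scaled to CPM, the usual correction for library size, here taken over the library outside its most abundant features, and the mean of log2(CPM + 1) over the 4 libraries of a group was taken as its level. A member rose by at least 0.7 from 0h to 2h and by at least 0.8 from 0h to 4h, and fell by at least 0.7 from 4h to the reverted group. Of 11924 genes with enough counts (at least 160 over all libraries), 72 passed the 3 thresholds. The rule leaves out by name the Egr, Fos, Jun, Spry, Spred, Dusp, Etv, Myc, Krt and Id1 genes, which removed 14 and left 58. Those 14 were Spry4, Egr1, Myc, Dusp6, Dusp4, Id1, Etv4, Egr3, Spred1, Dusp5, Fosl1, Spry2, Junb and Etv1. The group changes from 0h to 2h, from 0h to 4h and from 4h to the reverted group are therefore given as descriptions, with no test.

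The study followed RNA in RSC cells of the line CRAFR26, in which 4-hydroxytamoxifen (4OHT) switches on c-RAF, the kinase that activates MEK and through it ERK. All cells were grown in N2B27 medium with 2 µM IWP2, an inhibitor of Wnt secretion, 1 µM of the MEK inhibitor PD03 and 1000 U/ml LIF, and for the 48 hours before the experiment 250 nM of the FGF receptor inhibitor PD17 took the place of PD03. Group 0h received no 4OHT. Groups 2h and 4h received 250 nM 4OHT for 2 and 4 hours, and group rev received 4OHT for 4 hours and then a MEK inhibitor for 2 hours. There were 4 libraries in every group, with clones 4 and 8 of the line giving 2 apiece. Results for the line thus rest on 2 clones. The labels number the libraries of a clone as replicates without saying that they were separate cultures, so p-values measure the spread between these libraries, which may be technical. The rev cells were also 2 hours older than the 4h cells, so inhibition and time cannot be told apart, and no cells given 4OHT without the construct are analysed here.

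RNA was sequenced after removal of ribosomal RNA, and libraries held 4313599 to 10444126 counts. The 8 features with more than 1% of all counts each took 46.7% to 78.9% of a library, so that the rest of the library was smallest in library 1 of clone 8 at rev, which had 78.9% in those features. A count of 3, taken as the floor for detection, equals 0.555 to 2.33 CPM. These limits cover counting error only. Of 22 pluripotency markers, 21 had at least 160 counts, and their summed level ranged from 6361 to 7784 CPM at 0h and from 4913 to 7608 CPM at 4h. No fibroblast marker of 8 reached 160 counts, and 5 of them (Col1a2, Col3a1, Dcn, Fap and Lum) had at most 3 counts in every library. In a principal component analysis on the 500 genes with the highest variance, 38 of them members, the clones were split by component 1 (51% of the variance). Component 3 (8.57%) set all libraries of 0h and 4h apart from all libraries of 2h and rev. The part of this split in the members' changes was not tested. Bulk RNA cannot tell fewer cells with a transcript from less transcript per cell.

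ERK is the last kinase of the RAF, MEK and ERK cascade. In the nucleus it phosphorylates transcription factors of the ETS family and raises the immediate-early genes within minutes, many of which encode transcription factors (EGR, FOS, JUN) and feedback inhibitors (SPRY, DUSP) that act on the genes that follow. In pluripotent cells, FGF signals through ERK move cells away from self-renewal, and MEK inhibitors are added to culture media to hold them there.

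The promoters of 5 members are shown because they carry letters bound by factors that ERK signalling is known to engage: AP-1 (TGANTCA), CRE (TGACGTCA) and EGR (GCGNGGGCG). Each stretch is the 200 bases before a RefSeq transcription start on build GRCm38.p6, written 5′ to 3′ on the gene's own strand, with matches to these motifs on either strand and to TATAAA on the gene's strand in capitals. They lie on the plus strand at chr7:24462283-24462482 (Plaur), chr10:56377100-56377299 (Gja1) and chr4:141301021-141301220 (Epha2), and on the minus strand at chr12:80113014-80113213 (Zfp36l1) and chr5:147726012-147726211 (Flt1).
Plaur: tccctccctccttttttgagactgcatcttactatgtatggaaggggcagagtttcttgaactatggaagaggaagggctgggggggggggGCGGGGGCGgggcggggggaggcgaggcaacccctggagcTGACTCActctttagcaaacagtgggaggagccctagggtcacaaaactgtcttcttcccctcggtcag
Gja1: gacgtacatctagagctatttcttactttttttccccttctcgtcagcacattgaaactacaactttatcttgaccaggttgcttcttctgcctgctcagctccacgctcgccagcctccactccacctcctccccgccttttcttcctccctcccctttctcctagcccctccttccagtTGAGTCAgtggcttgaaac
Epha2: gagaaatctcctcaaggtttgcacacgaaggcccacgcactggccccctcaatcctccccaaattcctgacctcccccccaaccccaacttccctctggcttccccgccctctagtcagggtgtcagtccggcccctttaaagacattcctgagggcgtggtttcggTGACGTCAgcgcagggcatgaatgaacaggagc
Zfp36l1: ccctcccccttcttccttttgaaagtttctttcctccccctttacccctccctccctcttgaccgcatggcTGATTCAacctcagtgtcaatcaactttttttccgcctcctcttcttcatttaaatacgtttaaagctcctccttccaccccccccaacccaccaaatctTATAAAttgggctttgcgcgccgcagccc
Flt1: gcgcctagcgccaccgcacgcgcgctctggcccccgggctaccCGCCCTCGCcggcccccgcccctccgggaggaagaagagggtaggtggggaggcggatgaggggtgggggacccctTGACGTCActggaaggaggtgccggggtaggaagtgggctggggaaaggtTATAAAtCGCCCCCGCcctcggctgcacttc
In Plaur the capitals mark an EGR match and an AP-1 match, in Gja1 an AP-1 match, and in Zfp36l1 an AP-1 match and a TATA box. Epha2 has a CRE match, and Flt1 has 2 EGR matches, a CRE match and a TATA box. Of the 58 members, 38 were found in the RefSeq table, with 47 start windows of 300 bases (250 before to 50 after the start). AP-1 letters were in 12.8% of those windows and in 7.81% of all 32851 windows, in the members Gja1, Plaur, Sgms2, Trim44 and Zfp36l1. CRE letters were in 6.38% against 1.79% (Epha2, Flt1 and Pax6), and EGR letters in 10.6% against 5.55% (Adam23, Enox1, Flt1, Plaur and Trim44). The ETS letters CCGGAAGT were in 2.13% against 3.89%, and the CArG box, the serum response element, in 0 of 47 windows against 1.63%. TATAAA on the gene's strand was in 10.6% against 8.32%. The median GC content of the windows was 60.7% for members and 52.7% for all. A match describes letters only, and the share of windows was not tested.

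The members rose by a median of 1.19 on the log2(CPM + 1) scale from 0h to 2h and by 2.01 from 0h to 4h, and fell by 1.43 from 4h to rev. The medians over all 11924 genes were -0.07, -0.07 and 0.00 (rounded). Since 1 is added to every CPM, differences of genes near 0 are understated on this scale. At 2h all 4 libraries lay above all 4 of 0h for 37 of 58 members, a pattern that 5.98% of all genes had. At 4h the same was true of 45 members against 0h (5.6% of all genes), and 32 members lay higher in all 4h libraries than in all rev libraries (4.88%). The rule used these contrasts, so the counts describe how far the libraries of a group spread and no more. The genes nearest the thresholds were Pou4f2 (0.71, 2.75 and -0.75) and Smim3 (0.73, 2.24 and -1.29) inside, and Csrnp1 (0.98, 1.18 and -0.70) and Stambpl1 (1.01, 1.65 and -0.68) outside, for the 3 contrasts in the order 2h minus 0h, 4h minus 0h and rev minus 4h.

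**Figure D1:**
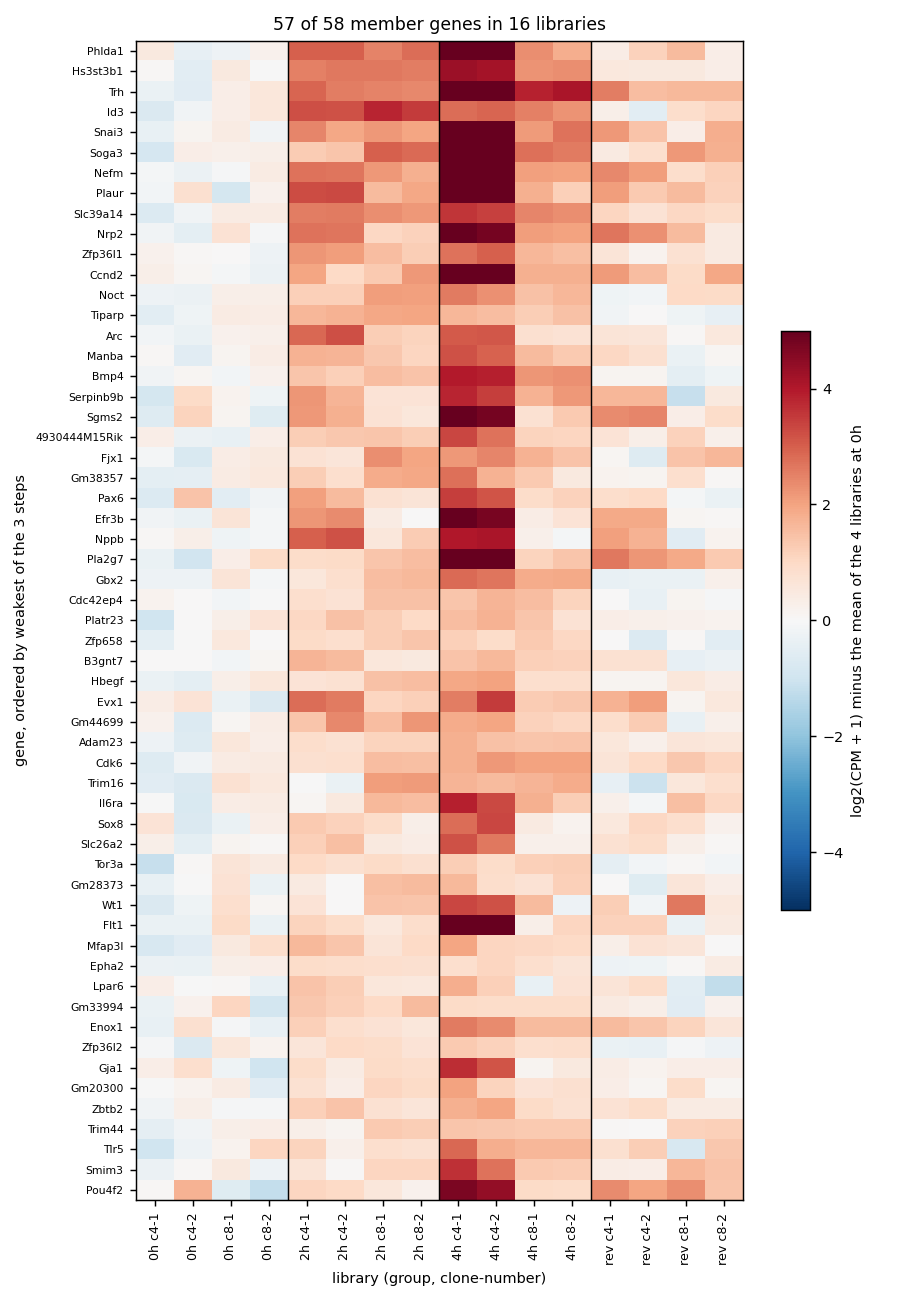
Level of 57 of the 58 members in each of the 16 libraries, as log2(CPM + 1) minus the mean of the 4 libraries at 0h (colours stop at 5 above or below). Columns are libraries by group, clone (c4, c8) and number, and rows are genes ordered by the weakest of their 3 changes. The darkest columns are those of clone 4 at 4h, where the median rise was 2.96 against 1.13 in clone 8.

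Per-library values below are CPM, with library 1 before library 2 of each clone. Among the secreted factors, Trh (ENSMUSG00000005892, chr6:92242061-92244650, minus strand), the precursor of thyrotropin-releasing hormone, had the largest rise of all members at 4h. At 0h it stood at 1.65 and 1.23 in clone 4 and at 3.12 and 3.91 in clone 8, and at 2h at 23.7 and 18.4 in clone 4 and 17.5 and 16.5 in clone 8. At 4h it reached 144 and 174 in clone 4 and 46.5 and 54.4 in clone 8, and at rev it was 18.7 and 8.76, and 9.31 and 9.28. All 4h libraries were above all 2h libraries, and every rev library was above every 0h library. Trh was thus one of the members furthest from its starting level after inhibition, with rev minus 0h at 1.85.

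Bmp4, a ligand of the BMP receptors, went further down. It stood at 2.20 and 2.87 in clone 4 and 2.27 and 3.13 in clone 8 at 0h, and at 8.36 and 7.15, and 9.48 and 8.70, at 2h. At 4h the values were 55.3 and 52.9 in clone 4 and 15.8 and 16.4 in clone 8. At rev they were 2.93 and 3 in clone 4 and 1.55 and 2.06 in clone 8, so that both libraries of clone 8 lay below the lowest of 0h. Hbegf, a membrane-anchored ligand of the EGF receptor, had a different course in the 2 clones. In clone 4 it went from 16.5 and 14.8 at 0h to 35.1 and 36.4 at 2h and 84.3 and 88.0 at 4h, and back to 23.4 and 23.5 at rev. In clone 8 it went from 26.4 and 31.7 to 61.3 and 63.3 at 2h, and was then at 38.8 and 38.4 at 4h and 31.8 and 28.2 at rev. The peak was at 4h in clone 4 and at 2h in clone 8. Nppb, the precursor of B-type natriuretic peptide, had at most 3 counts in every 0h library. It reached 23.2 and 24.5 at 4h in clone 4, where clone 8 stood at 0.802 and 0.400, at or below 3 counts. Both 4h libraries of clone 8 lay within the range of the 0h libraries. Pla2g7, which encodes a secreted enzyme that cleaves platelet-activating factor, was at 86.4 and 59.5 in clone 4 at 4h and at 3.21 and 4.00 in clone 8.

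Receptors and other surface proteins came next. Plaur, the receptor of the urokinase plasminogen activator, stood at 1.65 and 4.10 in clone 4 and 0.568 and 2.35 in clone 8 at 0h, and at 26.8 and 27.6, and 7.66 and 9.99, at 2h. At 4h it was at 179 and 117 in clone 4 and at 8.83 and 5.60 in clone 8, and at rev at 11.4 and 6.25, and 7.76 and 5.50. Every rev library lay above every 0h library. Nrp2, a co-receptor for semaphorins and VEGF, rose in clone 4 from 2.75 and 2.05 to 26.8 and 26.2 at 2h and 234 and 116 at 4h. In clone 8 it went from 5.96 and 3.13 to 7.66 and 8.51 and then to 16.9 and 16. The ephrin receptor gene Epha2 had the highest level per length at 4h, 79.9 CPM per kilobase of exon, and one of the smallest rises. Its 0h libraries were at 171 and 164 in clone 4 and 253 and 259 in clone 8, and its 2h libraries at 389 and 379, and 373 and 361. At 4h it was at 373 and 432, and 367 and 323, and at rev at 175 and 177, and 218 and 272. The groups 0h and rev overlapped, and 2h and 4h overlapped. Il6ra, the receptor chain for interleukin 6, was at 106 and 70.1 in clone 4 at 4h and at 23.5 and 16 in clone 8. Flt1, a VEGF receptor, had 63.3 and 47.0 CPM in clone 4 at 4h and at most 1.76 in every other library (2h and rev of clone 4 included), which kept it below the count filter of the tests. Tlr5, a Toll-like receptor, and Lpar6, a lysophosphatidic acid receptor, had highest levels of 22.1 and 15.9 CPM, both in library 1 of clone 4 at 4h.

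Gja1 (ENSMUSG00000050953, chr10:56377330-56402513, plus strand), which encodes the gap junction protein connexin 43, met the thresholds in neither clone alone. It stood at 24.2 and 34.5 in clone 4 and 16.2 and 9 in clone 8 at 0h, and at 36.5 and 25.2, and 37.5 and 35.3, at 2h. At 4h clone 4 was at 256 and 175 and clone 8 at 20.6 and 26.8, and at rev they were at 24.3 and 21.3, and 24.0 and 23.7. Clone 8 moved at 2h and clone 4 at 4h. The transporters Slc39a14 and Slc26a2 carry zinc and sulphate. Slc39a14 went from 11 and 16 in clone 4 and 24.1 and 24.6 in clone 8 at 0h to 110 and 115, and 95.2 and 84.9, at 2h. It then reached 228 and 204, and 101 and 93.2, at 4h and 39.2 and 30.5, and 38.0 and 35.4, at rev. The 0h, 2h and rev groups did not overlap. Slc26a2 was at 333 and 229 in clone 4 at 4h, where clone 8 was at 43.6 and 42.8, close to its 0h level of 40.3 and 37.9.

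Among the transcription factors, Id3, an inhibitor of basic helix-loop-helix factors, peaked at 2h. It stood at 1.65 and 2.87 in clone 4 and 4.54 and 5.48 in clone 8 at 0h, and at 40.1 and 39.2, and 61.1 and 48.8, at 2h. At 4h it was at 29.4 and 31.7, and 24.1 and 19.6, and at rev at 4.39 and 2.00, and 6.98 and 8.24. All 2h libraries lay above all 4h libraries, which was true of 2 members (Id3 and the lincRNA Gm33994) and of 5.16% of all genes. Snai3 (ENSMUSG00000006587, chr8:122454208-122460733, minus strand), of the SNAIL family of zinc finger repressors, climbed steeply in clone 4. It was at 0.551 and 1.23 there at 0h (at or below 3 counts), at 10 and 6.81 at 2h, and at 213 and 163 at 4h. In clone 8 the same 3 groups were at 1.70 and 0.782, at 8.06 and 7.03, and at 7.76 and 12.4. The clones thus overlapped at 2h and stood far apart at 4h. The rev libraries were at 8.20 and 4.50 in clone 4 and 1.55 and 6.18 in clone 8.

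The homeobox genes Gbx2, Evx1 and Pax6 were low at 0h. Gbx2 went from 1.65 and 1.64 in clone 4 and 3.98 and 1.96 in clone 8 at 0h to 21.4 and 19.2, and 10.4 and 10.8, at 4h and 1.46 and 1.5, and 1.55 and 2.75, at rev. Pax6 was at 2.20 and 12.7 in clone 4 and 2.56 and 3.52 in clone 8 at 0h and at 56.3 and 45.0, and 8.83 and 10.4, at 4h. Library 2 of clone 4 at 0h thus lay above both 4h libraries of clone 8. That library also held the highest 0h level of Pou4f2, a POU homeodomain factor, at 12.7 against 3.30 in library 1. Pou4f2 was at 107 and 85.3 in clone 4 and 6.95 and 6.80 in clone 8 at 4h, and at 19.9 and 15, and 19.4 and 9.62, at rev. In clone 8 its rev libraries were above its 4h libraries.

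Pax6 was on the list of 7 neural markers. Their summed level was 236 to 294 CPM at 0h and 217 to 252 CPM at 4h, and Neurog2 had at most 3 counts in every library. The part of other cell types in these levels was not tested.

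Regulators of mRNA were represented by Zfp36l1 and Zfp36l2, which bind AU-rich elements and promote mRNA decay. Noct, which encodes the circadian protein nocturnin, is described beside them. Zfp36l1 stood at 16.5 and 14.8 in clone 4 and 14.2 and 11.7 in clone 8 at 0h and at 69.6 and 63.0, and 42.7 and 34.6, at 2h. It was at 97.5 and 119, and 46.5 and 42.4, at 4h and at 22.6 and 16, and 24.8 and 19.9, at rev. At 2h and at 4h both libraries of clone 4 were the higher. Of the exon sequence of Zfp36l1, 55.9% is shared with an antisense transcript, and for Gbx2 and Phlda1 the share was 43.5% and 33.0%. Reads from the 2 strands cannot be told apart without knowing how strand was counted, which is not given in the sources used here. Noct went from 41.3 and 39.8 in clone 4 and 60.2 and 61.0 in clone 8 at 0h to 113 and 116, and 215 and 207, at 2h. At 4h it was at 308 and 247, and 139 and 158, and at rev at 43.1 and 45.0, and 100 and 96.9. Clone 8 was higher at 2h and clone 4 at 4h. The transcript Gm38357, also a member, lies within the span of Noct on the same strand and shares no annotated exon sequence with it. Reads from unspliced Noct RNA may still be counted in Gm38357, which was not tested.

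The cell cycle genes Ccnd2 and Cdk6 encode cyclin D2 and its partner kinase. Ccnd2 had at most 3 counts in every 0h library, was at 5.69 and 2.38 in clone 4 and 3.23 and 6.66 in clone 8 at 2h, and at 88.1 and 77.4, and 4.81 and 4.80, at 4h. The rise from 2h to 4h was present in clone 4 alone by these values. Cdk6 was at 3.30 and 4.92 in clone 4 and 7.95 and 8.21 in clone 8 at 0h, and at 22.5 and 29.1, and 26.2 and 26.4, at 4h. The clones overlapped at 4h, and the rev libraries, at 9.66 and 12.5, and 16.3 and 13.1, were all above 0h.

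Signalling and membrane proteins included Phlda1, Arc, Efr3b and Tiparp. Phlda1 is a pleckstrin homology domain protein. The smallest of its 3 changes, 2.74 in size, was larger than that of any other member. It stood at 1.65 and 0.410 in clone 4 and 0.568 and 1.17 in clone 8 at 0h, and at 14.0 and 14.0, and 9.48 and 12.2, at 2h. The 4h values were 69.1 and 61.5, and 8.56 and 5.60, and at rev at 1.46 and 3.25, and 4.65 and 1.37. Arc, an immediate-early gene of neurons whose protein acts in receptor endocytosis, was at 34.1 and 29.5 in clone 4 and 43.2 and 44.2 in clone 8 at 0h. At 2h it was at 281 and 356, and 88.5 and 82.3, and at 4h at 323 and 327, and 65.5 and 62.8. At rev it was at 58 and 57.5, and 38.8 and 54.6. The induced libraries of clone 4 were the highest of all. Efr3b (ENSMUSG00000020658, chr12:3962554-4038915, minus strand), which anchors a lipid kinase at the plasma membrane, rose in clone 4 from 8.81 and 7.79 to 50.2 and 56.2 at 2h and 440 and 299 at 4h. In clone 8 it was at 16.2 and 9.39 at 0h, 13.9 and 10.2 at 2h and 13.4 and 16.8 at 4h. In clone 8 the 3 groups overlapped. Tiparp, a mono-ADP-ribosyltransferase, was at 117 to 147 CPM at 2h and at 87.5 to 118 CPM at 4h.

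Enzymes of glycans and lipids were a further group. Hs3st3b1, which adds sulphate to heparan sulphate chains, was at 5.51 and 3.28 in clone 4 and 7.67 and 5.09 in clone 8 at 0h, and at 34.4 and 37.8, and 37.3 and 35.9, at 2h. By 4h it had reached 120.0 and 109, and 28.6 and 30, and at rev at 7.91 and 7.76, and 7.76 and 6.87. The clones were together at 0h, 2h and rev and apart at 4h. B3gnt7, a glycosyltransferase, was at 105 and 96.0 in clone 4 and at 47.2 and 44.8 in clone 8 at 2h. At 4h B3gnt7 was at 85.4 and 97.9 in clone 4 and 73.6 and 71.2 in clone 8, and at rev at 53.6 and 53.3, and 23.3 and 25.1. Sgms2, a sphingomyelin synthase, was at 184 and 90 in clone 4 at 4h and 4.55 and 7.20 in clone 8. The neurofilament gene Nefm was at 110 and 81.4 in clone 4 at 4h and 8.29 and 8.00 in clone 8. Soga3 was at 89.9 and 64.2 in clone 4 and 11 and 10 in clone 8.

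**Figure D2:**
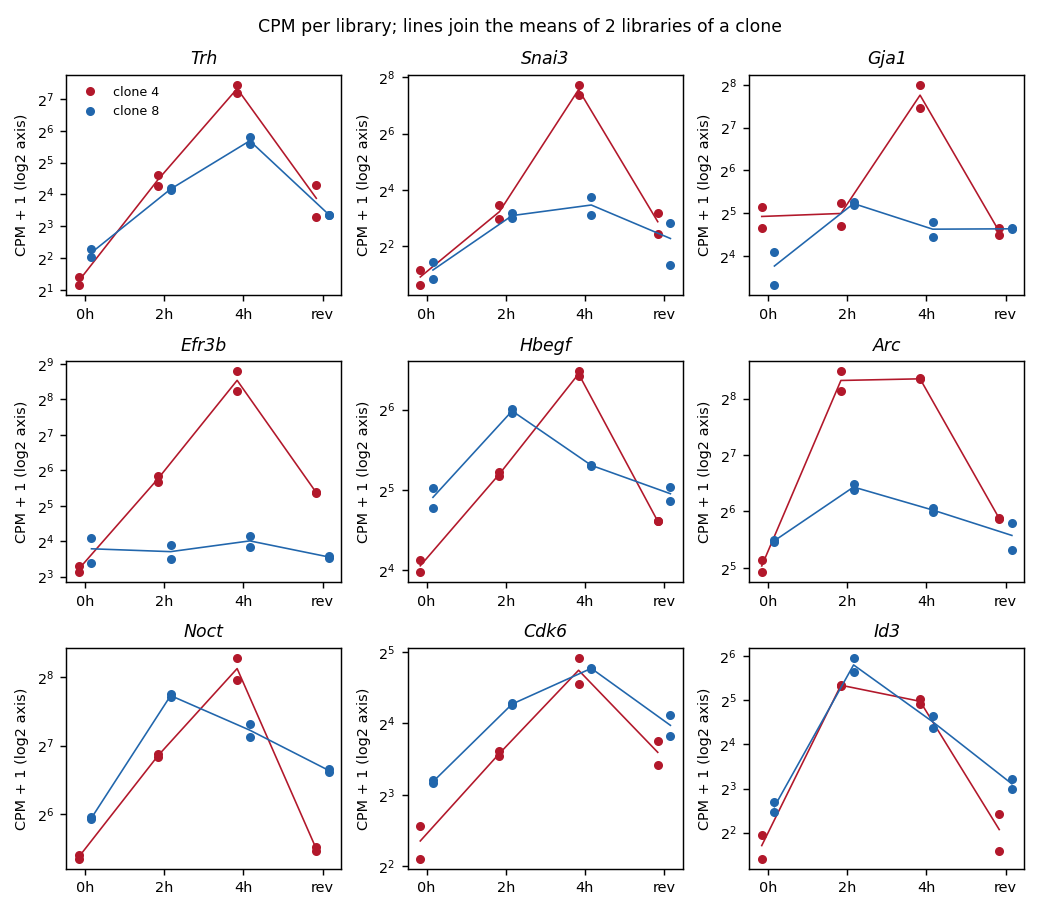
CPM + 1 of 9 members in each library on a log2 axis, for groups 0h, 2h, 4h and rev, with points for libraries and lines for the mean of the 2 libraries of a clone (red clone 4, blue clone 8). Efr3b rose to 440 and 299 CPM in clone 4 and stayed at 13.4 and 16.8 CPM in clone 8 at 4h, Cdk6 was at 22.5 to 29.1 CPM at 4h over both clones, and Hbegf peaked at 2h in clone 8.

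Biotype, gene structure and position were not used by the rule. Of the 58, 51 were protein-coding (87.9%, against 93.5% of all genes), and 4 were lincRNAs. They had a median of 5 exon blocks against 10, with a median exon length of 4463 against 4476 bases and a median span of 21145.5 against 23166 bases. Gm38357 lay within the span of Noct, Gm33994 lay 42.62 kilobases from Platr23, and Trim44 lay 41.54 kilobases from Fjx1. Wt1 and Pax6 were 495.3 kilobases apart, and Slc39a14 was 220.9 kilobases from Egr3, one of the genes left out by name. These are descriptions, with no test of how often genes lie so near by chance.

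The members differed in when they peaked. From the group means, 51 of 58 were higher at 4h than at 2h, 21 of them by at least 1 on the log2 scale, and 7 peaked at 2h (Id3, Tiparp, Arc, Gm44699, Epha2, Lpar6 and Gm33994). All 4h libraries lay above all 2h libraries for 9 members (6.05% of all genes), namely Trh, Bmp4, Gbx2, Adam23, Cdk6, Enox1, Trim44, Tlr5 and Smim3. At rev, 10 members were at or below their 0h mean, among them Bmp4, Gbx2, Tiparp, Zfp36l2 and Trim16, and 14 were still at least 1 above it. The rev libraries all lay above the 0h libraries for 9 members (4.31% of all genes), namely Trh, Soga3, Nefm, Plaur, Slc39a14, Ccnd2, Pla2g7, Cdk6 and Zbtb2.

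The clones were compared because the rule averages over them and does not use their difference directly. A gene can still pass through a large change in a single clone. The thresholds were met by 26 members in clone 4 alone and by 3 in clone 8 alone. The counts of members with a clone difference are thus partly set by how the members were chosen. The change of clone 8 minus that of clone 4 was tested for every gene with edgeR's quasi-likelihood test, with Benjamini-Hochberg adjustment over 12742 genes, of which 57 were members. A larger mean response leaves more room for clones to differ, so the members' counts are not those of genes with small responses. From 0h to 4h, clone 4 rose by a median of 2.96 and clone 8 by 1.13 on the log2(CPM + 1) scale. On that scale the rise was larger in clone 4 for 58 of 58 members. On the edgeR scale it was larger in clone 4 for 56 of 57. The exception was Evx1 (0.84, not called), with at most 3 counts in clone 8 at 0h. In the test, 32 of 57 members (56.1%) were called and all 32 had the smaller change in clone 8. Among all genes 5.72% were called, 3.69% with the smaller or more negative change in clone 8. The median clone difference was -1.81 over the members and 0.03 over all genes.

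**Figure D3:**
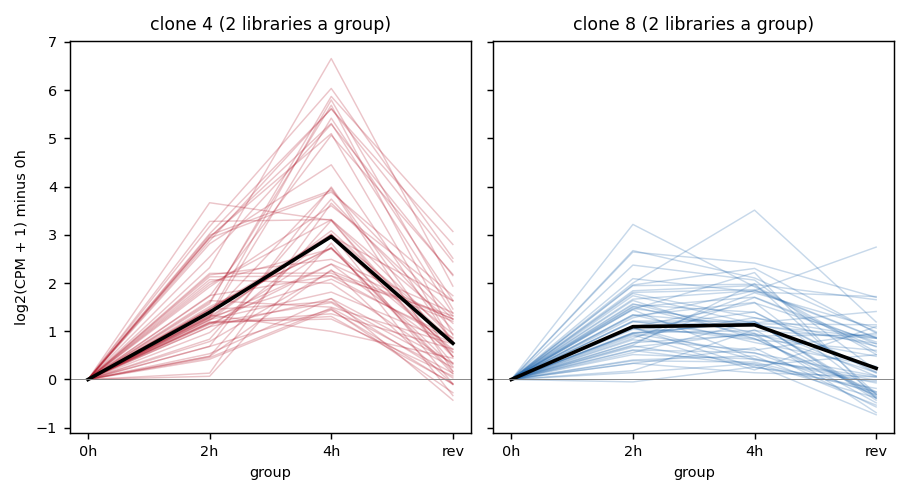
Course of each member in clone 4 (left) and clone 8 (right) as log2(CPM + 1) minus its 0h mean of the clone, with the median of the 58 in black. The medians were 1.39, 2.96 and 0.75 in clone 4 and 1.10, 1.13 and 0.23 in clone 8 at 2h, 4h and rev.

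Efr3b had a clone difference of -5.36 in its 4h minus 0h change (edgeR log2 scale, SE 0.393, adjusted p = 6.39e-11). For Arc it was -2.82 (SE 0.215, adjusted p = 8.68e-11), and for Slc26a2 -2.96 (SE 0.271, adjusted p = 3.58e-09). Hbegf differed by -2.06 (SE 0.238, adjusted p = 4.66e-07) and Gja1 by -2.07 (SE 0.343, adjusted p = 0.000109). In each of these the libraries of clone 4 and clone 8 stood apart at 4h. Pla2g7 (-7.28) and Snai3 (-4.78) had, with Efr3b, the largest fitted differences among members with a group mean of at least 10 CPM, but clone 4 had at most 3 counts of either at 0h, so these sizes depend on the prior count and are not bounds. The call of Snai3 was lost without 0h library 1 of clone 8 (-4.07, adjusted p = 0.282), and so was that of Gja1 (-1.54, adjusted p = 0.0702). The clone differences of Id3 (-1.53, adjusted p = 0.0909) and Cdk6 (-0.88, adjusted p = 0.299) did not pass.

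From 0h to 2h the median rises were 1.39 in clone 4 and 1.10 in clone 8, and 14 of 57 members were called against 7.94% of all genes, 12 with the smaller change in clone 8 (5.01% of all genes). Efr3b (-2.90), Nrp2 (-2.77) and Arc (-2.44) had the largest differences of that kind among members with a group mean of at least 10 CPM (edgeR adjusted p = 1.31e-05, 0.016 and 1.23e-09). Gja1 (1.36, adjusted p = 0.00854) and Cdc42ep4 (0.81, adjusted p = 0.0266), which binds the GTPase CDC42, rose more in clone 8. Without 0h library 2 of clone 4 the count was 6 members, and without 0h library 1 of clone 8 it was 9. The call of Nrp2 was lost in both cases (adjusted p = 0.116 and 0.256), and that of Slc26a2 in the first (-0.825, adjusted p = 0.1). That of Gja1 was lost without 0h library 2 of clone 4, 0h library 2 of clone 8 or 2h library 2 of clone 4, and that of Cdc42ep4 was lost in 6 of 16 leave-outs and with DESeq2.

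The step from 2h to 4h had the most members called. In clone 4, 54 of 58 members were higher at 4h than at 2h, 37 by at least 1, and the median step was 1.41. In clone 8, 27 were higher, 2 by at least 1 (Trh and Serpinb9b), and the median step was -0.04. The test called 38 of 57 members (66.7%), 37 with the smaller or more negative step in clone 8, against 14.8% of all genes (6.48% in that direction). Gja1 differed by -3.43 (SE 0.269, edgeR adjusted p = 1.04e-10), Soga3 by -4.65 (SE 0.387, adjusted p = 3.33e-10) and Noct by -1.75 (SE 0.151, adjusted p = 6.93e-10). Ccnd2 (-4.37) and Pla2g7 (-5.02) were among the largest. B3gnt7 was called in the other direction, at 0.86 (SE 0.168, adjusted p = 0.000495), having dropped by 0.14 in clone 4 and gone up by 0.64 in clone 8.

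After MEK inhibition the fall from 4h was also larger in clone 4, with medians of -2.33 and -0.81. Of 57 members, 32 were called against 13.2% of all genes. For 31 of them clone 8 fell less or did not fall (6.3% of all genes were called in that direction and 6.89% in the other). Those that did not fall in clone 8 were Pou4f2, Wt1, Pla2g7, Smim3, Sox8 and, at 0.02, Gja1. Soga3 differed by 4.47 (SE 0.559, edgeR adjusted p = 1.11e-06), Ccnd2 by 3.90 (SE 0.609, adjusted p = 3.23e-05) and Snai3 by 3.88 (SE 0.590, adjusted p = 2.25e-05). Pou4f2 differed by 3.39 (SE 0.452, adjusted p = 2.74e-06), having gone up by 0.90 in clone 8. B3gnt7 again went the other way, at -0.81 (adjusted p = 0.00584). Without rev library 2 of clone 8 the calls of Snai3 (2.35, adjusted p = 0.351), Ccnd2 (3.01, adjusted p = 0.131) and B3gnt7 (-0.84, adjusted p = 0.0514) were lost, and that of B3gnt7 also without 4h library 1 of clone 4. The calls of Nrp2 for the 2h to 4h step and for the fall to rev were lost with DESeq2 and without 4h library 1 of clone 4, the latter call also without 3 other libraries. Arc, Efr3b, Epha2, Gja1, Nrp2, Slc26a2 and Slc39a14 were called in each of the changes from 0h to 2h, from 0h to 4h and from 4h to rev. These changes share the 0h and 4h libraries and are not independent of each other.

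**Figure D4:**
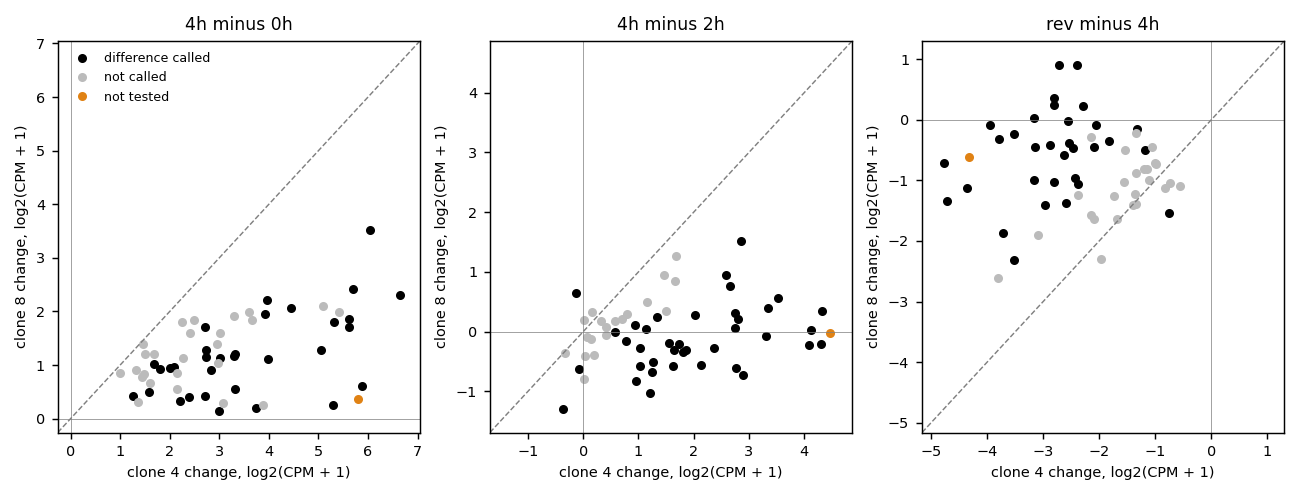
Change in clone 8 against change in clone 4 for each member, log2(CPM + 1), from 0h to 4h, from 2h to 4h and from 4h to rev, with the dashed line where the clones are equal. Black points are members with a called clone difference (32, 38 and 32 of 57), grey points were not called, and the orange point is Flt1, which was not tested.

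At 0h, 12 of 57 members differed between clones against 11.7% of all genes. Of these, 10 were higher in clone 8 (7.03% of all genes) and 2 lower (4.65%). The members' median difference was 0.61 (all genes 0.00). Adam23, a disintegrin-domain surface protein, was at 32.5 and 25 CPM in clone 4 and 58.8 and 50.5 in clone 8 (0.96 on the edgeR log2 scale, adjusted p = 0.000165). Epha2 (0.61, adjusted p = 0.000153) and Tiparp (0.77, adjusted p = 0.0015) were also higher in clone 8. Gja1 (-1.19, adjusted p = 0.00226) and Pou4f2 (-2.68, adjusted p = 0.00179) were lower in clone 8. Without 0h library 2 of clone 4, 6 members were called and Gja1 and Pou4f2 (-1.30, adjusted p = 0.488) were not, and without 0h library 1 of clone 8, 7 were called. Gja1 also lost its call without 0h library 2 of clone 8.

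Rule and clone were also read together. Taken in clone 4 alone the thresholds were met by 118 genes, 48 of them members (40.7% of that list and 82.8% of the members). In clone 8 alone they were met by 28 genes, 25 of them members (89.3% of that list and 43.1% of the members). Both clones met all thresholds for 22 members, such as Trh, Bmp4, Id3, Snai3, Nrp2 and Phlda1. Another 26 met them in clone 4 alone, 3 in clone 8 alone (Cdc42ep4, Gm33994 and Trim16), and 7 in neither (Gja1, Gm20300, Gm28373, Il6ra, Pou4f2, Smim3 and Trim44). In clone 8, 45 members rose by at least 0.7 at 2h, 41 by at least 0.8 at 4h, and 33 fell by at least 0.7 at rev. For the other members of clone 8 the change missed the threshold of the step.

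Reads assigned to Esr1, the estrogen receptor gene, differed between the clones and between the groups. Pairs of values for Esr1 and Nanog give the lower library first. Esr1 stood at 28.9 and 32.5 CPM in clone 4 at 0h and at 8.91 and 11.5 in clone 8, and in clone 4 it was the higher in every group. At 4h the values were 34.2 and 49.8 in clone 4 and 15.1 and 17.5 in clone 8. Reads of an introduced construct cannot be told apart from those of the mouse gene, and the part of these levels in the clone differences was not tested. Nanog, a core pluripotency factor, was at 285 and 435 in clone 4 and 1066 and 1212 in clone 8 at 4h, and at 923 and 940, and 1425 and 1467, at 0h. Nanog is no member.

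The 14 genes left out by name, which passed the same thresholds, showed the clone difference as well. In the 4h minus 0h change 9 of 14 were called, all smaller in clone 8 (3.69% of all genes), with a median difference of -2.51. In the 2h to 4h step 12 of 14 were called, all smaller or more negative in clone 8 (6.48% of all genes). The median was -1.52. The clone difference is therefore not called particular to the 58 members.

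Other genes of the pathway were taken from a list of 60 that the rule left out or that belong to the cascade, 56 of which were tested. From 0h to 2h, 30 of 56 rose and 2 fell (edgeR, adjusted p under 0.05), where 9.49% of all genes rose and 7.48% fell. From 0h to 4h, 25 rose and 1 fell (7.35% and 5.56% of all genes), and from 4h to rev 20 fell and 8 rose (5.1% and 4.5%). The 20 became 13 and 12 without 4h library 1 or 2 of clone 4, and 13 without either rev library of clone 4. The list includes the 14 genes that met the thresholds, whose changes the rule used. All 14 are among the 30 and 25 that rose and the 20 that fell. These counts are thus partly set by the rule, and their excess over the shares of all genes is no test. Outside the 14, the genes that fell from 4h to rev were Spry1, Spred2, Dusp2, Etv5, Braf and Shc1, and the 8 that rose also lay outside. Egr1, Spry4 and Dusp6 were among the 14, so their changes are given on the edgeR log2 scale with no test. Egr1, an immediate-early factor, rose by 7.30 at 2h and by 5.65 at 4h, and fell by 4.82 at rev. Spry4, a feedback inhibitor of receptor signalling, rose by 5.60 at 2h and 5.78 at 4h and fell by 6.41 at rev. Dusp6, the phosphatase of ERK, fell by 5.03 at rev. Of the cascade itself, Mapk3, which encodes ERK1, changed by -0.44 from 0h to 2h (adjusted p = 0.113) and was not called. The keratins Krt7, Krt8, Krt18 and Krt19 rose at 2h and rose again from 4h to rev, by 2.03, 2.24, 1.32 and 2.30.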

How the data were processed

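Gene counts of 16 libraries were deposited by the authors as 1 table of raw counts per Ensembl gene. Per the submitters' processing notes, bcl2fastq 2.19.1, STAR 2.5.3a and build mm10 were used. The counting program, annotation and strand setting are not given in the sources used here. Symbols came from GENCODE M21 on GRCm38 (52489 of 52636 gene IDs matched), and promoter sequences from RefSeq on GRCm38.p6. For the rule, the 8 features above 1% of all counts and genes under 160 counts were dropped, CPM was taken of the rest, and a pseudocount of 1 was added before log2. The members and gene lists were chosen with earlier results of these data known.

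Tests used edgeR 4.0.16 in R 4.3.3 on the counts, with TMM scaling, filterByExpr by group (10 counts, 15 in total) and Benjamini-Hochberg adjustment over 12742 genes, called under 0.05. The model held the 8 means of group and clone, and each clone difference was a contrast of these. The clone test was tested on simulated data. Named genes were the 12 members with the largest weakest step, members of the role lists, and up to 3 members a direction with the largest called clone difference and a group mean of at least 10 CPM. Members described beside these were chosen after their values were seen. Alternatives were library totals for TMM, DESeq2 1.42.0, no count filter, a replicate block and leaving out each library. Low counts limit precision most in rev library 1 of clone 8. No pair of libraries was merged, since each pair of a clone and group differed beyond counting error (chi-square over its degrees of freedom from 1.32 to 4.49). The values of 1 member and of a few other genes are not reported here.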

Additional observations from a re-analysis of the deposited data

Results flagged for a closer look

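In 11 cases the gap between 1 library and the nearest of the other 3 of its group, divided by the group's range, passed Dixon's 95% limit. Over 58 members and 4 groups chance, at about 1 in 20, gives about as many. A gap can pass where values are close or counts are low. At rev they were Hs3st3b1 at 6.87 CPM in library 2 of clone 8, Trh at 18.7 in library 1 of clone 4, Arc at 38.8 and Gm38357 at 8.53 in library 1 of clone 8, Gbx2 at 2.75 in library 2 of clone 8, and Adam23 at 46.8 in library 2 of clone 4. At 0h they were Soga3 at 0 in library 1 of clone 4 and Flt1 at 1.42 in library 1 of clone 8. At 2h Gja1 was low at 25.2 in library 2 of clone 4. At 4h Mfap3l at 9.68 and Tlr5 at 22.1 were high in library 1 of clone 4.

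The remaining cases were changes that differed between the clones by edgeR's test of the difference itself, given as clone 8 minus clone 4 on the log2 scale. Members called numbered 14 for 0h to 2h (7.94% of all genes) and 32 for 0h to 4h (5.72%). They numbered 32 for 4h to rev (13.2%) and 38 for 2h to 4h (14.8%). From 0h to 2h they included Efr3b (-2.90), Nrp2 (-2.77), Arc (-2.44), Gja1 (1.36) and Cdc42ep4 (0.809). From 0h to 4h they included Pla2g7 (-7.28), Efr3b (-5.36) and Snai3 (-4.78). From 4h to rev they included Soga3 (4.47), Ccnd2 (3.90), Snai3 (3.88) and B3gnt7 (-0.814). From 2h to 4h they included Pla2g7 (-5.02), Soga3 (-4.65), Ccnd2 (-4.37) and B3gnt7 (0.856).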

How the results depend on the processing

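No clone difference of a named member changed sign under any alternative run. With 1 library left out at a time, the members called ranged from 6 to 14 for 0h to 2h, 22 to 33 for 0h to 4h, 24 to 32 for 4h to rev, 32 to 40 for 2h to 4h and 6 to 14 for the level at 0h. Genes called as falling from 4h to rev on the ERK list, which includes the 14 left out by name, ranged from 12 to 21. With DESeq2 the 5 member counts were 10, 24, 27, 31 and 12. The calls held under every alternative for 5, 16, 18, 29 and 4 members. Leaving out a library gives a clone and group 1 library, assumed to vary like the others. Taken in clone 4 alone the rule was met by 118 genes, and in clone 8 alone by 28. Without the filter on low counts 83 genes met it, and in leave-outs 48 to 76, with 34 members meeting it in all 16. Same-numbered libraries correlated at -0.133 to 0.119 over 12 pairs of groups, so the numbers are not taken to pair them. With a replicate block 14, 30, 31, 38 and 12 members were called. Depth limits members near 3 counts at 0h, whose fitted differences have no firm size. The cause of the changes between settings was not tested.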
